A study of Sus scrofa with 32 samples.

Results

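The transcripts of leukemia inhibitory factor (LIF), of the receptor chains that bind LIF and its relatives, of the STAT proteins those receptors activate and of their feedback inhibitor SOCS3 were measured in 4 compartments of the pig endometrium. The 10 genes, chosen by name, are LIF, LIFR, IL6R, IL6ST, IL11RA, OSMR, STAT3, STAT5A, STAT5B and SOCS3, and they occupied 11 of the 30185 genes in the count tables. Of these, 9 were matched by their pig symbol. No pig gene carries the symbol LIFR, and 2 neighbouring loci annotated as LIF receptors, LOC397451 and LOC102167255, are reported apart as LIFR loci.

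LE (the luminal epithelium), GE (the epithelium of the glands), BV (blood vessels) and S (the stroma) were cut by laser capture microdissection from frozen endometrium of 8 prepubertal gilts whose estrus had been synchronized with eCG and hCG. The 4 pregnant gilts (P139, P39, P41 and P43) had been inseminated with boar semen, and the 4 nonpregnant or cyclic gilts (C128, C40, C42 and C78) with semen supernatant of the same boar. All were sampled on Day 14, the pregnant gilts at the hyperemic zones where the conceptuses attach, and every capture was amplified from a picogram amount of total RNA, so that each library stands for 1 gilt. Gilts are named by the letter and number of their labels. GE of pregnant gilt P41 was left out of the processed data according to its label, which leaves 31 libraries, n = 3 in pregnant GE and n = 4 in every other group.

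Cytokines of the IL6 family act through receptor complexes built around a shared signalling chain, IL6ST (gp130). LIF pairs it with LIFR, and oncostatin M with LIFR or OSMR, whereas IL6 and IL11 first bind the ligand-specific chains IL6R and IL11RA. The complexes activate Janus kinases, which phosphorylate STAT3 and, to a lesser extent, other STATs, and STAT3 induces SOCS3, which shuts the receptor off. In many mammals LIF from the uterine glands prepares the luminal epithelium for attachment of the embryo, and the comparison of pregnant with cyclic gilts asks which compartments change this machinery at the onset of attachment.

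Levels are given as CPM, counts scaled to a common library size, after TMM normalization over all 31 libraries, with library totals of 2415216 to 7081556 counts and a median of 3624021. Where 4 values are listed, they follow the order of cyclic gilts C128, C40, C42 and C78, or of pregnant gilts P139, P39, P41 and 43. Changes with pregnancy are log2 fold changes (pregnant minus cyclic) from edgeR's quasi-likelihood test, and a change counts as called in LE when it passes a false discovery rate of 1%. GE, BV and S take over the p reached at that limit in LE, an unadjusted 0.000328, as their threshold. The captures carried RNA of neighbouring cells. Epithelial markers summed to 2785 to 3245 CPM in cyclic and 2279 to 2616 CPM in pregnant LE, and to 1500 to 1832 CPM in GE, but fibroblast markers still summed to 4097 to 16514 CPM in LE and 2877 to 7533 CPM in GE, beside 25082 to 106304 CPM in BV and S. The GE library of gilt C128 was the lowest cyclic one for all 11 loci, and changes in GE are given with and without it where they moved most. In such bulk captures, fewer cells of a type and less RNA per cell cannot be told apart.

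The receptor chains were spread unevenly over the compartments. IL6ST, IL6R and IL11RA reached their highest mean levels in GE, and LIFR and OSMR their lowest ones there. STAT3 was nearly even over the compartments. Levels were also scaled by the length of all annotated exons of a gene, which allows only a rough comparison between genes. The mean level in pregnant GE was 287 CPM per kb of exon for IL6ST, 53.6 for IL6R, 50.8 for IL11RA, 8.97 and 2.4 for the LIFR loci LOC102167255 and LOC397451, and 1.67 for OSMR. In pregnant S the same chains stood at 80 (IL6ST), 7.45 (IL6R), 11.6 (IL11RA), 70.8 and 20.5 (the LIFR loci) and 8.01 CPM per kb (OSMR).

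**Figure D1:**
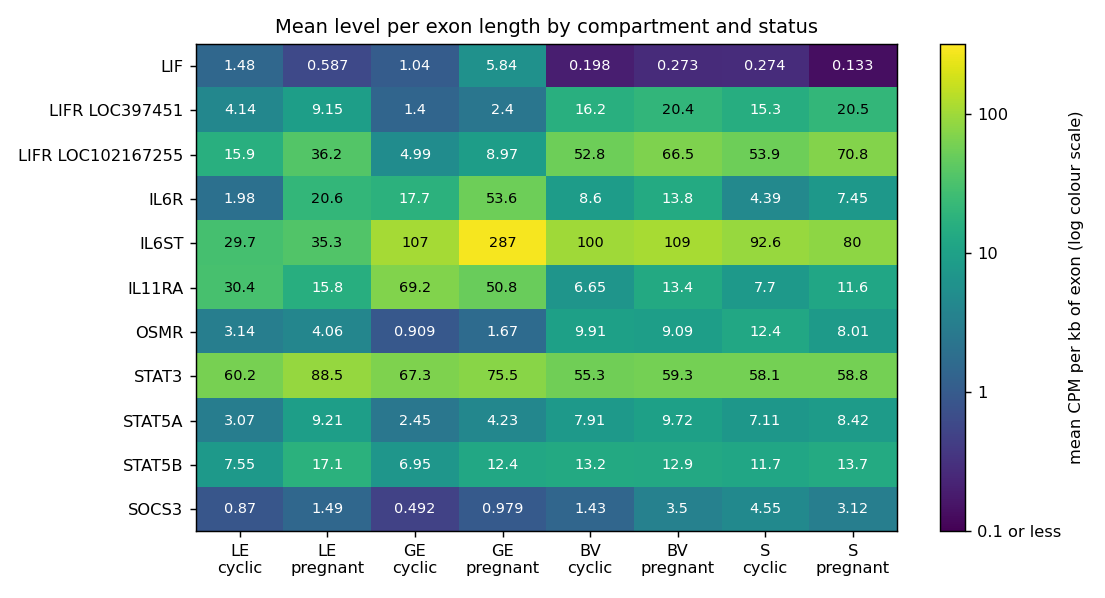
Mean level of each gene in CPM per kb of exon, written in each cell and shown on a log colour scale, for cyclic and pregnant gilts in LE, GE, BV and S (n = 4, and 3 in pregnant GE). IL6ST in pregnant GE holds the highest value (287), LIFR and OSMR are lowest in GE, and STAT3 stays between 55.3 and 88.5 in all 8 groups.

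The ligand LIF (gene ID 399503, chr14:47221540-47239513, minus strand, Sscrofa11.1) had its highest mean level in GE of pregnant gilts. In GE it measured 0, 11.8, 5.05 and 20.8 CPM in cyclic gilts and 41.7, 66.3 and 51.1 CPM in pregnant gilts P139, P39 and 43. All 3 pregnant libraries lay above all 4 cyclic ones. The means were 9.39 ± 8.99 CPM (SD, n = 4) and 53.0 ± 12.4 CPM (SD, n = 3), and the log2 fold change of 2.47 ± 0.88 (SE) did not pass the call rule (adjusted p = 0.151). Without cyclic gilt C128, which had no LIF count, it was 2.06 (adjusted p = 0.0573). The test used by the study, edgeR's robust GLM, called LIF in GE (log2 fold change 2.64, adjusted p = 0.00141), but DESeq2 did not (adjusted p = 0.243).

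Outside the glands LIF was at most 13.3 CPM in every library except LE of cyclic gilt C78. LE held 0, 5.02, 2.85 and 45.7 CPM in cyclic and 3.86, 0.955, 13.3 and 3.2 CPM in pregnant gilts, and the groups overlapped. The library of cyclic gilt C78 alone set the direction in LE, where the log2 fold change of -1.30 (adjusted p = 0.536) became 1.08 without it (adjusted p = 0.517). BV and S had at most 7.2 CPM in any library, below the authors' filter on low counts, and LIF was not tested there.

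Between the compartments of pregnant gilts, LIF was 14.07-fold higher in GE than in LE (adjusted p = 0.00262), 29.37-fold higher than in BV (adjusted p = 0.000284) and 65.64-fold higher than in S (adjusted p = 7.04e-05), in a joint quasi-likelihood fit with the gilt as a block. The difference from LE missed 1% without the block (adjusted p = 0.0188) and without gilt P139, P39 or P43 (at most 0.0303). The fold against S rests on 14 LIF counts in the 4 pregnant S libraries together. In cyclic gilts the 4 compartments did not differ for LIF at 1% (adjusted p = 0.151), but did when gilt C128 was left out (adjusted p = 0.00526).

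**Figure D2:**
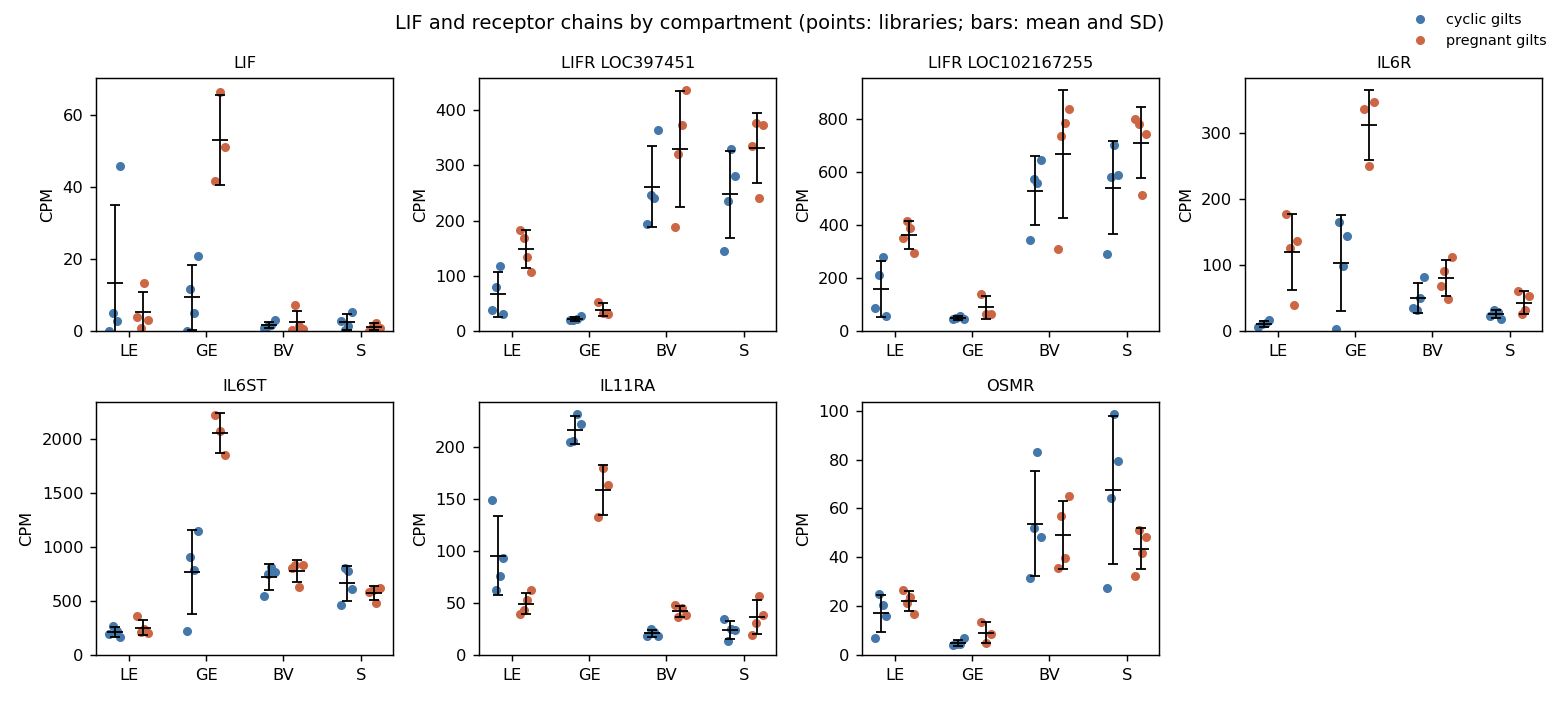
CPM of LIF and the receptor chains in LE, GE, BV and S, with 1 point per library (blue, cyclic gilts; orange, pregnant gilts) and the mean with SD as bars, each panel on its own linear axis from 0. LIF is high in the 3 pregnant GE libraries (41.7 to 66.3 CPM), IL6R rises in LE from at most 16.8 to at least 40 CPM, and IL11RA is lower in pregnant LE and GE and higher in pregnant BV.

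IL6R, the chain that binds IL6 and can also be shed as a soluble receptor, showed the largest called change of these genes (gene ID 399522, chr4:95322426-95381393, minus strand). In LE it measured 5.89, 11.1, 12.3 and 16.8 CPM in cyclic gilts and 178, 126, 40 and 136 CPM in pregnant gilts. The groups did not overlap, with pregnant gilt P41 the lowest of its group. The means of 11.5 ± 4.50 and 120 ± 58.0 CPM (SD, n = 4 each) differed by a log2 fold change of 3.38 ± 0.50, or 10.44-fold (adjusted p = 0.00429).

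The direction held in every leave-one-out fit, with log2 fold changes of 3.11 to 3.68, while leaving out gilt C40, C42, P139, P39 or P43 moved the adjusted p to 0.0127 to 0.0195, past 1%. Robust GLM and DESeq2 both called IL6R. Leukocytes carry IL6R as well. The 7 leukocyte markers summed to 39.59 to 95.57 CPM in cyclic and 79.07 to 142.9 CPM in pregnant LE, and none of the 4 that could be tested was called. Of 3 genes listed as neutrophil markers, which need not be confined to neutrophils, S100A12 had no count in cyclic LE and 13 to 50.4 CPM in pregnant LE. S100A8 had at most 0.228 CPM in cyclic and 1.29 to 10.8 CPM in pregnant LE. CSF3R, a receptor of neutrophils and other myeloid cells, had 1.31 to 5.69 CPM in cyclic and 0.318 to 5 CPM in pregnant LE. S100A12 was called higher, and the other 2 were under the authors' filter. The sum of the 7 epithelium markers was lower in pregnant LE without overlap, as given above, with KRT8 called (log2 fold change -1.60). At an unadjusted p under 0.05, 3 of the 7 were lower and 2 were higher. Smooth muscle markers summed to 193.5 to 412.6 CPM in cyclic and 121.3 to 163.2 CPM in pregnant LE, with none called. The part of any of these in the result was not tested.

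In GE, IL6R stood at 3.89, 166, 98.8 and 145 CPM in cyclic and 337, 251 and 348 CPM in pregnant gilts. The pregnant values again lay above all cyclic ones, but cyclic gilt C128 was far below its group. The log2 fold change of 1.58 ± 0.85 did not pass (adjusted p = 0.31), and without gilt C128 it was 1.18 (adjusted p = 0.0475). In BV, the values of 35.3, 32.4, 49.7 and 82.9 CPM in cyclic and 68.5, 91.7, 49.4 and 113 CPM in pregnant gilts overlapped (log2 fold change 0.70 ± 0.34, adjusted p = 0.206). S held 22.4, 32.8, 28.4 and 18.7 CPM against 61.5, 25.8, 32.1 and 54.1 CPM, again overlapping (0.78 ± 0.30, adjusted p = 0.287).

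Cyclic LE had the least IL6R of the compartments. It was 7.78-fold lower than cyclic GE (adjusted p = 0.000259), or 10.71-fold without gilt C128 (adjusted p = 3.83e-06). Against cyclic BV it was 4.51-fold lower (adjusted p = 0.00243), a call lost without gilt C42 or C78 (at most 0.0142), and it did not pass against cyclic S (adjusted p = 0.0518). In pregnant gilts LE did not differ at 1% from GE (adjusted p = 0.0703), BV (0.469) or S (0.0355), and GE exceeded S 6.09-fold (adjusted p = 0.000629). With cyclic gilt C128 left out of the joint fit, pregnant LE was 2.49-fold below GE (adjusted p = 0.00338) and 2.51-fold above S (adjusted p = 0.00204). The difference between the pregnancy effects of LE and GE itself was 1.73 ± 0.76 on the log2 scale and did not pass (adjusted p = 0.216), and those against BV (2.67 ± 0.74, adjusted p = 0.0255) and S (2.69 ± 0.75, adjusted p = 0.0451) missed 1%. Without gilt C128 these differences were 2.11 for GE (adjusted p = 0.0171), 2.48 for BV (adjusted p = 0.00365, past 1%) and 2.36 for S (adjusted p = 0.0112).

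IL6ST, the signal-transducing chain shared by the family (gene ID 100037294, chr16:35101304-35151832, minus strand), was the most abundant receptor transcript in GE. It measured 225, 911, 792 and 1151 CPM in cyclic and 2227, 2080 and 1857 CPM in pregnant GE. The groups did not overlap, and gilt C128 was again the lowest of the cyclic gilts. The means were 770 ± 393 CPM (SD, n = 4) and 2055 ± 186 CPM (SD, n = 3), with a log2 fold change of 1.40 ± 0.47 (adjusted p = 0.139), or 1.09 without gilt C128 (adjusted p = 0.0433).

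In LE, IL6ST was low and overlapped between groups, at 194, 267, 226 and 164 CPM in cyclic and 358, 214, 240 and 199 CPM in pregnant gilts (log2 fold change 0.27 ± 0.24, adjusted p = 0.498). BV ranged from 543 to 814 CPM in cyclic and 631 to 838 CPM in pregnant gilts, and S from 463 to 808 and 483 to 621 CPM. Neither change passed (0.12 ± 0.17 and -0.21 ± 0.20, adjusted p = 0.663 and 0.669). LE was the lowest compartment in both states. In pregnant gilts GE was 7.83-fold above LE (adjusted p = 2.59e-07), 2.53-fold above BV (adjusted p = 0.000393) and 3.42-fold above S (adjusted p = 2.17e-05). In cyclic gilts GE and BV differed by -0.0068 ± 0.25 on the log2 scale, and by 0.32 ± 0.20 without gilt C128. The pregnancy effects of GE and BV differed by 1.36 ± 0.37, which did not pass (adjusted p = 0.0579, or 0.0646 without gilt C128). Those of GE and S (1.66 ± 0.37, adjusted p = 0.04) and of LE and GE (-1.23 ± 0.38, adjusted p = 0.0626) missed 1% too. So did the test of the pregnancy effect over all compartments (adjusted p = 0.0264).

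In the same GE libraries the 7 leukocyte markers summed to 28.68 to 38.68 CPM in cyclic and to 84.9 to 129.7 CPM in pregnant gilts, without overlap. None of the 5 that could be tested was called, and 3 had an unadjusted p under 0.05. Their part in the result was not tested. Cyclic gilt C128, the lowest cyclic GE library for all 3 genes, also had the highest sum of the gland markers FOXA2, SPDEF and MUC6 (494.4 CPM, against 102.8 to 214.7 CPM in the other cyclic libraries). The same library had the lowest cyclic GE sum of the epithelium markers (1593 CPM, against 1735 to 1832 CPM). Its fibroblast sum was the highest (7533 CPM, against 2877 to 5382 CPM), and so was its leukocyte sum (38.68 CPM). What set this library apart was not tested.

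IL11RA, the binding chain of IL11 (gene ID 100524166, chr10:32138984-32149315, minus strand), had a higher mean in pregnant BV and lower means in both pregnant epithelia. LE had 149, 62.5, 76.2 and 93.1 CPM in cyclic and 39.1, 43.3, 52.8 and 62.1 CPM in pregnant gilts. All pregnant values were below the cyclic ones, the closest pair being 62.1 and 62.5 CPM. The log2 fold change was -0.93 ± 0.27 and missed the threshold (adjusted p = 0.0603). GE had 205, 206, 232 and 222 CPM in cyclic and 133, 180 and 163 CPM in pregnant gilts, also without overlap (-0.46 ± 0.16, adjusted p = 0.14).

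In BV it measured 18.2, 24.9, 22.1 and 17.8 CPM in cyclic and 47.8, 36.4, 44.8 and 38.6 CPM in pregnant gilts. The means were 20.8 ± 3.37 and 41.9 ± 5.31 CPM (SD, n = 4 each), without overlap. The 2.02-fold rise (log2 fold change 1.02 ± 0.17) was called by the quasi-likelihood test (adjusted p = 0.0163). Leaving out cyclic gilt C128, C42 or C78 or pregnant gilt P139, P41 or P43 ended the call, with log2 fold changes of 0.95 to 1.11 over all 8 leave-one-out fits. S held 34.8, 12.9, 24.8 and 23.6 CPM in cyclic and 18.7, 30.4, 57 and 38.8 CPM in pregnant gilts, which overlapped (0.59 ± 0.37, adjusted p = 0.503).

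Epithelial RNA in the BV captures changed in the same direction. The 7 epithelium markers summed to 26.56, 48.25, 2.555 and 29.75 CPM in cyclic BV and 294.4, 184.9, 160.5 and 172.9 CPM in pregnant BV, without overlap, and CDH1 was called higher. All 7 were above 0 in every pregnant BV library and 3 in every cyclic one. Pregnant GE, where IL11RA stood at 159 ± 23.6 CPM (SD, n = 3), had 1500 to 1717 CPM of these markers. Pregnant LE, where IL11RA stood at 49.3 ± 10.3 CPM (SD, n = 4), had 2279 to 2616 CPM of them. Smooth muscle markers summed to 5296 to 16480 CPM in cyclic BV and to 768.9 to 6311 CPM in pregnant BV. The part of either in the IL11RA result was not tested.

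The effect of pregnancy on IL11RA differed between compartments. In the joint fit with the gilt as a block, the test over all 4 compartments gave an adjusted p of 0.00689, and LE and BV differed by -1.88 ± 0.37 on the log2 scale (adjusted p = 0.00264), a call lost without gilt C42, C78 or P39 (at most 0.0149). The difference between LE and S was -1.45 ± 0.36 (adjusted p = 0.023), and between GE and BV -1.33 ± 0.38 (adjusted p = 0.0658). IL11RA alone of the 9 loci that could be tested passed at 1%, against 3.05% of 9727 genes over all compartments and 3.37% for LE against BV. The test over all compartments was lost without gilt C128, C42, C78, P139, P39, P41 or P43, where its adjusted p was at most 0.0343. Independent of pregnancy, IL11RA marked the glands. Cyclic GE exceeded cyclic LE 2.37-fold, BV 10.26-fold and S 9.33-fold (adjusted p = 0.000445, 3.17e-09 and 4.87e-09).

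**Figure D3:**
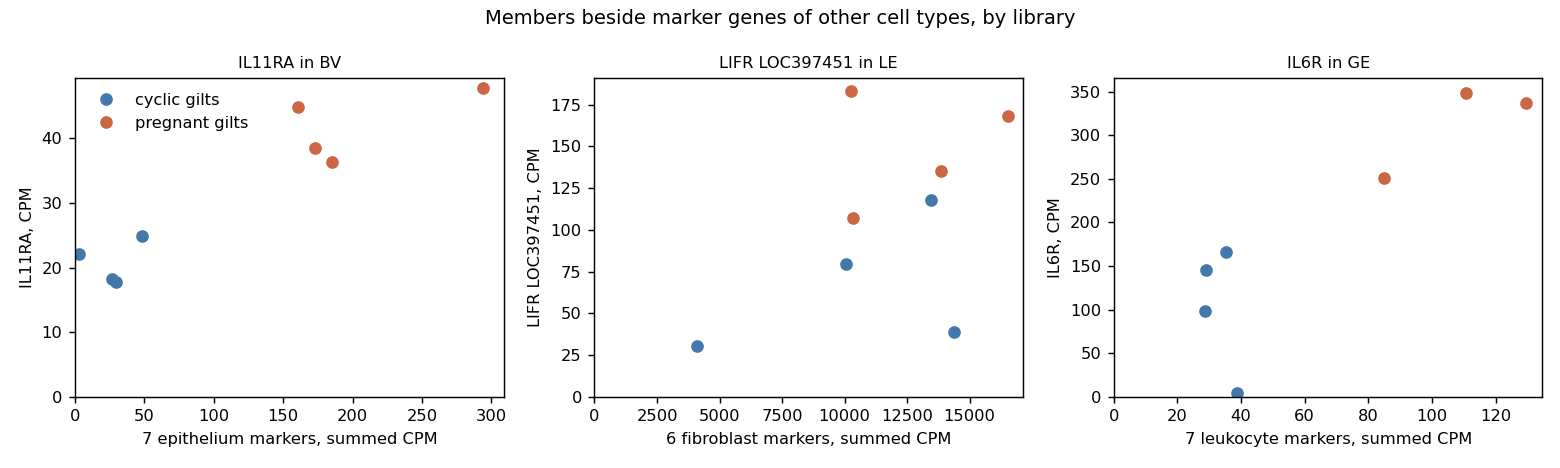
Each point is 1 library (blue, cyclic; orange, pregnant), with the CPM of IL11RA in BV, LIFR LOC397451 in LE and IL6R in GE against the summed CPM of 7 epithelium, 6 fibroblast and 7 leukocyte markers, all axes linear from 0. Both the gene and the marker sum separate cyclic from pregnant libraries in the BV and GE panels, whereas fibroblast markers overlap between the groups in LE.

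The LIF receptor and the oncostatin M receptor followed a pattern opposite to IL11RA. The LIFR loci lie side by side on the minus strand of chromosome 16, LOC397451 at chr16:23685565-23760062 and LOC102167255 at chr16:23627700-23672724. Their transcripts share a block of 1856 bases at 99.1% identity, so that reads from it could be assigned to either or be dropped, and their levels are uncertain where they are set apart. LOC397451 took 25.7 to 37.8% of the counts of both loci in the 31 libraries.

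LOC397451 measured 38.8, 79.7, 118 and 30.5 CPM in cyclic LE and 183, 168, 135 and 107 CPM in pregnant LE, where only the 118 and 107 CPM of gilts C42 and P43 overlapped. LOC102167255 had 87.2, 213, 281 and 58 CPM against 353, 415, 390 and 294 CPM, without overlap. The log2 fold changes of 1.17 ± 0.40 and 1.20 ± 0.44 were close to each other, and neither passed (adjusted p = 0.0939 and 0.11). Summed over the loci, the log2 fold change was 1.19 ± 0.43 (adjusted p = 0.106). Robust GLM called both loci (adjusted p = 0.00133 and 0.00676) and DESeq2 neither (0.0351 and 0.043).

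Endothelium and fibroblasts, in whose compartments LIFR was high, left markers in LE too. Endothelial markers summed to 298.4, 705.3, 639 and 124 CPM in cyclic and 407, 997.6, 791.1 and 758.1 CPM in pregnant LE, and cyclic gilts C128 and C78 were lowest for them and for both LIFR loci. Fibroblast markers summed to 14365, 10060, 13459 and 4097 CPM in cyclic and 10262, 16514, 13844 and 10340 CPM in pregnant LE. Their part in the LIFR levels was not tested.

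GE had the least LIFR. LOC397451 gave 20.3, 21, 21.6 and 27.8 CPM in cyclic and 52.1, 32.8 and 31.7 CPM in pregnant GE, and LOC102167255 gave 44.7, 50, 58.8 and 46.8 CPM against 66.6 CPM in P39, 64.2 CPM in P43 and a higher level in P139 (mean of the 3, 90.03 ± 42.7 CPM, SD). Neither pair of groups overlapped, and neither change passed (log2 fold changes 0.77 ± 0.23 and 0.84 ± 0.29, adjusted p = 0.105 and 0.141, or 0.71 and 0.78 without gilt C128). The loci in BV ranged from 193 to 364 and 345 to 645 CPM in cyclic and from 189 to 436 and 310 to 839 CPM in pregnant gilts. S was alike, at 145 to 329 and 293 to 702 CPM in cyclic and 240 to 376 and 513 to 801 CPM in pregnant gilts, and in BV and S the groups overlapped. Cyclic BV exceeded cyclic GE 11.35-fold for LOC397451 (adjusted p = 4.39e-08) and 10.41-fold for LOC102167255 (adjusted p = 1.92e-07), and in pregnant gilts 8.77-fold (adjusted p = 2.51e-06) and 7.52-fold (adjusted p = 1.48e-05). LE stood between them in both states.

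OSMR, the alternative partner of IL6ST for oncostatin M (gene ID 100519398, chr16:24041312-24101842, plus strand), was distributed like LIFR at lower levels per exon length. Cyclic S exceeded cyclic GE 12.58-fold (adjusted p = 1.04e-08) and cyclic LE 3.88-fold (adjusted p = 1.44e-05). No change of OSMR with pregnancy passed the test in any compartment. LE held 6.96, 24.9, 20.3 and 15.9 CPM in cyclic and 26.5, 21.3, 23.7 and 16.6 CPM in pregnant gilts (log2 fold change 0.39 ± 0.35, adjusted p = 0.521). In S the cyclic values of 27.3, 64.2, 98.8 and 79.4 CPM and the pregnant ones of 32.3, 51.3, 41.9 and 48.4 CPM overlapped (-0.63 ± 0.34, adjusted p = 0.439). GE had 3.89 to 6.78 and 4.98 to 13.6 CPM, and BV 31.6 to 83.2 and 35.5 to 64.9 CPM. Exons of LOC110257329 on the opposite strand cover 2726 of the 5424 exon bases of OSMR, and whether counting used the strand is not stated, so reads of the pair cannot be told apart there.

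STAT3, the main STAT downstream of IL6ST (gene ID 733648, chr12:20407316-20471091, plus strand), was the evenest of these genes. In LE it measured 120, 187, 148 and 141 CPM in cyclic and 238, 243, 207 and 189 CPM in pregnant gilts. The groups did not overlap, but 187 and 189 CPM nearly touched. The log2 fold change of 0.57 ± 0.18, 1.48-fold, did not pass (adjusted p = 0.0705). GE ranged from 117 to 221 CPM in cyclic and 169 to 200 CPM in pregnant gilts, BV from 106 to 170 and 130 to 167 CPM, and S from 90.7 to 188 and 122 to 189 CPM, and in all 3 the groups overlapped with log2 fold changes of 0.16 ± 0.22, 0.11 ± 0.16 and 0.02 ± 0.23. Without gilt C128 that in GE was 0.01 (adjusted p = 0.971). The compartments did not differ for STAT3 in cyclic gilts (adjusted p = 0.38). In pregnant gilts LE exceeded BV by 0.58 ± 0.15 and S by 0.61 ± 0.15 on the log2 scale (adjusted p = 0.00441 and 0.00323). Both missed 1% without the block (0.0242 and 0.0214) and without gilt P39 or P41, and that from BV also without P139 (at most 0.0437 for BV and 0.0482 for S). The effect of pregnancy on STAT3 did not differ at 1% between LE and BV (0.49 ± 0.22, adjusted p = 0.161) or LE and S (0.56 ± 0.22, adjusted p = 0.155). Over all compartments the adjusted p of this difference was 0.241.

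STAT5A and STAT5B carry signals of prolactin, growth hormone and several cytokines and are products of neighbouring genes next to STAT3. STAT5A (gene ID 397550, chr12:20474221-20498785, minus strand) and STAT5B (gene ID 397340, chr12:20498103-20574365, plus strand) overlap by 683 bases at their ends, 24 of them exonic. Their spliced sequences align over 2359 bases at 90.4% identity and share 961 windows of 50 bases, so part of the reads cannot be placed on either gene with certainty. A coding stretch of 90 bases from the middle of that block, read from Sscrofa11.1 across an intron (STAT5A, chr12:20480849-20483100, minus strand; STAT5B, chr12:20556909-20557630, plus strand), is shown because it makes this likeness visible. Capitals mark the 3 positions at which the genes differ.
STAT5A: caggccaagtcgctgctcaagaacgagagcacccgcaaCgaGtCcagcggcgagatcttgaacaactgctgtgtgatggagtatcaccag
STAT5B: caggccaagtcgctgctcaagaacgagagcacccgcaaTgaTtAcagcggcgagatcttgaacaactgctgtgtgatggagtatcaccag

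Both genes had higher means in LE of pregnant gilts. STAT5B measured 36.7, 30.8, 40.2 and 46 CPM in cyclic and 109, 76.7, 80.1 and 82.6 CPM in pregnant LE. The groups were far apart relative to their spread, with means of 38.4 ± 6.36 and 87.0 ± 14.7 CPM (SD, n = 4 each). The log2 fold change of 1.19 ± 0.20, 2.29-fold, was called (adjusted p = 0.00693). It stayed between 1.05 and 1.32 when a gilt was left out, and the call at 1% held only without cyclic gilt 78. Without gilt C128, C40, C42, P139, P39, P41 or P43 the adjusted p was 0.0129 to 0.0241.

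STAT5A had 8.83, 12.2, 13.7 and 12.3 CPM in cyclic and 59.4, 20.4, 26 and 35.5 CPM in pregnant LE. All pregnant libraries exceeded the cyclic ones, gilt P139 by the widest margin. The log2 fold change was 1.60 ± 0.35, or 3.04-fold, and missed 1% (adjusted p = 0.0204), whereas robust GLM and DESeq2 called it (adjusted p = 0.000296 and 0.000447). Counts of the 2 genes summed rose by 1.30 ± 0.22 on the log2 scale (adjusted p = 0.00784). This sum does not depend on how shared reads were split between the genes. It would still depend on whether such reads were dropped or counted for both, which is not stated.

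**Figure D4:**
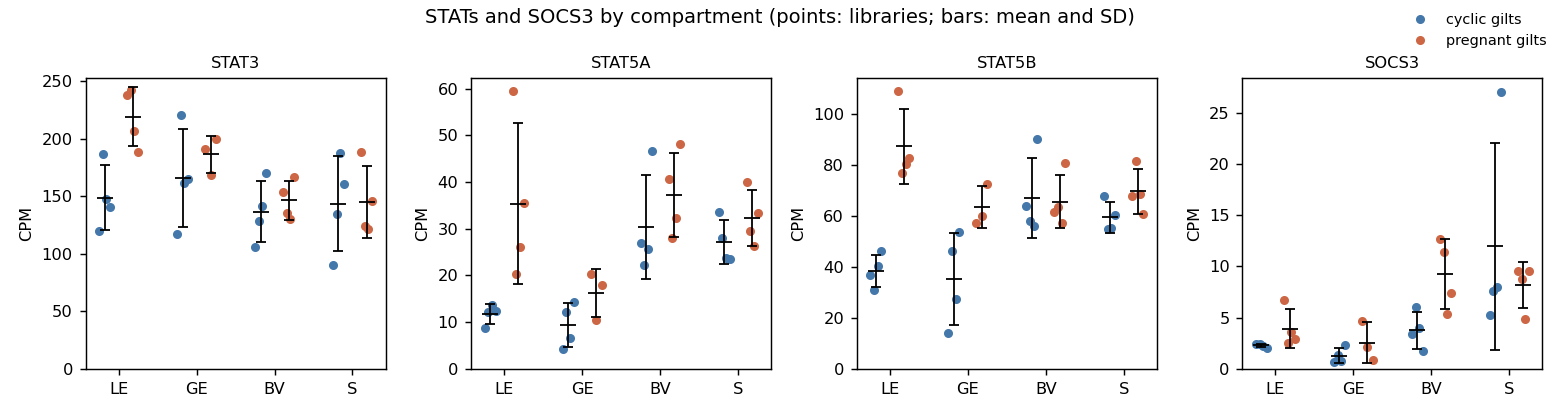
CPM of STAT3, STAT5A, STAT5B and SOCS3 in LE, GE, BV and S, 1 point per library (blue, cyclic gilts; orange, pregnant gilts), with mean and SD as bars on linear axes from 0. In LE the pregnant libraries lie above the cyclic ones for STAT5A, STAT5B and, narrowly, STAT3, as for 10.3% of all genes tested in LE. SOCS3 in LE was under the authors' filter, and its narrow gap rests on 8 to 11 counts per cyclic and 8 to 26 per pregnant library. In BV and S the groups overlap.

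In the other compartments STAT5A and STAT5B did not pass. GE had 4.32, 12.2, 6.66 and 14.4 CPM of STAT5A in cyclic and 20.3, 10.5 and 17.9 CPM in pregnant gilts, overlapping (0.78 ± 0.44, adjusted p = 0.33). STAT5B in GE, at 14, 46.1, 27.5 and 53.8 against 57.3, 60 and 72.6 CPM, did not overlap (0.82 ± 0.41, adjusted p = 0.272). Without gilt C128 the log2 fold changes in GE were 0.53 for STAT5A (adjusted p = 0.429) and 0.55 for STAT5B (adjusted p = 0.249). BV and S lay between 22.2 and 48.2 CPM for STAT5A and between 54.7 and 90.1 CPM for STAT5B, with overlapping groups and log2 fold changes of -0.02 to 0.31.

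Cyclic LE had 2.52-fold less STAT5A than cyclic BV and 2.37-fold less than cyclic S (adjusted p = 0.00038 and 0.000683). In pregnant gilts these differences were -0.15 ± 0.26 and 0.05 ± 0.26 on the log2 scale, and GE was 2.26-fold below LE (adjusted p = 0.00377), a call lost without the block (0.0157) and without gilt P139, P39 or P43 (at most 0.0478). For STAT5B the compartments differed in cyclic gilts (adjusted p = 0.00234, or 0.0148 without gilt C42) and not at 1% in pregnant gilts (adjusted p = 0.267). The change of the pregnancy effect over the compartments did not pass for either gene (adjusted p = 0.0693 for STAT5A and 0.0591 for STAT5B).

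SOCS3, the inhibitor that binds IL6ST and blocks its kinases (gene ID 493186, chr12:3643832-3647015, plus strand), was scarce. LE had 2.41, 2.4, 2.28 and 2.05 CPM in cyclic and 6.68, 2.55, 3.57 and 2.88 CPM in pregnant gilts, and GE 0.648 to 2.33 and 0.896 to 4.72 CPM. Both were under the authors' filter, and without it the log2 fold changes of 0.79 and 0.98 did not pass (adjusted p = 0.416 and 0.525). In BV it measured 3.36, 5.99, 3.97 and 1.7 CPM in cyclic and 12.7, 11.4, 5.36 and 7.42 CPM in pregnant gilts. Only gilts C40 and P41 crossed, and the log2 fold change of 1.26 ± 0.41 did not pass (adjusted p = 0.0858).

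S held 5.22, 7.57, 8.02 and 27 CPM in cyclic and 9.59, 8.73, 4.91 and 9.53 CPM in pregnant gilts. Cyclic gilt C78 stood apart, and the log2 fold change of -0.56 ± 0.51 (adjusted p = 0.659) became 0.26 without it (adjusted p = 0.769). Cyclic S exceeded cyclic GE 8.57-fold and cyclic LE 4.55-fold (adjusted p = 9.55e-06 and 0.000439), and in pregnant gilts GE was the lowest, 4.06-fold under BV and 3.71-fold under S (adjusted p = 0.00226 and 0.00346). Both calls were lost without the block (0.0107 and 0.0178) and without gilt P39 or P43 (at most 0.0259 and 0.0602).

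STATs bind palindromes of the form TTCNNNGAA. Both strands of the 250 bases before each annotated gene start were searched for these letters in Sscrofa11.1, and SOCS3 was the only one of the 11 loci with a match, beside 6.11% of 19545 protein-coding genes (1194 windows). The window is shown because SOCS3 is the STAT3 target of this group. It reads as follows (chr12:3643582-3643831, plus strand), with the match in capitals starting 166 bases before the gene.
SOCS3: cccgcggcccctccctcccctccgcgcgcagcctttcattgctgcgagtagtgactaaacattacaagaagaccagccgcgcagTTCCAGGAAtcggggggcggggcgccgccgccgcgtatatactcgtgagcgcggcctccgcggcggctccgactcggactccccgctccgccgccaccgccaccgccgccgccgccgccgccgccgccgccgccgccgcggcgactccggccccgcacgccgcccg

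Counted together, 10 of the 11 loci could be tested in each compartment. In LE, 2 of 10 were called, both higher in pregnant gilts (IL6R and STAT5B), against 3.32% of 12002 genes in either direction and 2.02% higher. Robust GLM called 5 of 10 (11.8% of all genes) and DESeq2 3 of 10 (11.2%). In BV 1 of 10 was called (IL11RA), against 1.86% of 11096 genes. In GE 0 of 10 were called by the quasi-likelihood test (0.748% of 11905 genes), although 5 of 10 had an unadjusted p under 0.05 (23.0% of all genes), 1 was called by robust GLM (6.66%) and 0 by DESeq2 (6.66%). In S 0 of 10 were called by the quasi-likelihood test (0.293% of 11935 genes), by robust GLM (3.16%) or by DESeq2 (2.60%), and 1 of 10 had an unadjusted p under 0.05 (14.5%).

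Groups of gilts that did not overlap were frequent in the epithelia. They were seen for 6 of the 10 tested loci in LE (19.4% of all genes) and 7 of 10 in GE (22.9%), with pregnant gilts higher for 5 (10.3%) and 6 (11.6%) of them and lower for IL11RA in both (9.12% and 11.3%). In BV it was 1 of 10 (18.2% of all genes) and in S 0 of 10 (8.81%). Both LIFR loci are among those counted in GE, and STAT5A and STAT5B among those in LE. Each pair shares sequence, so the counts are not of separate genes throughout. The median log2 fold change of the tested loci was 0.87 for LE, 0.83 for GE, 0.33 for BV and 0.24 for S, where the median of all genes tested lay between -0.0082 and 0.0018. The genes were chosen with earlier results of these data known, so these counts describe them and are no test of the group.

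**Figure D5:**
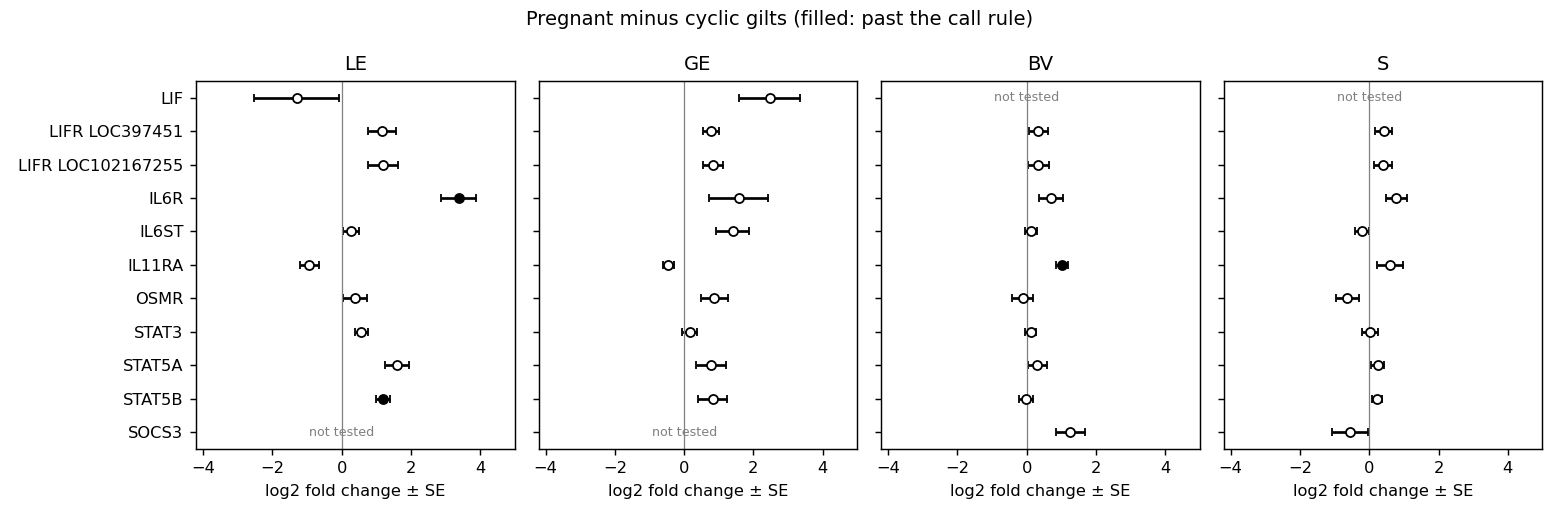
Log2 fold change (pregnant minus cyclic) with SE from edgeR's quasi-likelihood fit for each gene in LE, GE, BV and S, filled where the call rule was met and marked where the gene was under the filter. IL6R (3.38) and STAT5B (1.19) in LE and IL11RA (1.02) in BV are filled, and the epithelial values lie mostly right of 0 except for IL11RA and for LIF in LE.

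The levels of most of these genes depended on the compartment. In cyclic gilts 9 of 11 loci differed between compartments at 1% (65.5% of 13887 genes), the exceptions being LIF and STAT3, and in pregnant gilts 10 of 11 (55.1%), the exception being STAT5B. In cyclic gilts 6 of 11 loci differed between LE and GE (30.3% of genes), 7 each between LE and BV (38.7%), LE and S (39.5%), GE and BV (50.3%) and GE and S (50.7%), and 0 between BV and S (3.28%). In pregnant gilts the counts were 7 for LE and GE (25.0%), 4 each for LE and BV (30.9%) and LE and S (31.1%), 8 for GE and BV (38.1%), 9 for GE and S (40.9%) and 0 for BV and S (0.101%). The largest difference between BV and S was that of SOCS3 in cyclic gilts, at -1.40 ± 0.44 on the log2 scale for BV minus S (adjusted p = 0.0535).

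Other genes of the pathway were read from lists of 80 symbols, of which 78 were in the count tables. In LE, 4 of the 53 tested were called, all higher in pregnant gilts, against 3.32% of all genes in either direction and 2.02% higher. GAB1, the docking protein that links IL6ST to the MAPK and PI3K arms, rose from 84.8 ± 32.8 to 386 ± 24.1 CPM (log2 fold change 2.19 ± 0.28, adjusted p = 0.00289). PIK3R1, the regulatory subunit of PI3 kinase, rose from 247 ± 39.4 to 501 ± 57.3 CPM (1.03 ± 0.18, adjusted p = 0.00871).

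CEBPD, a transcription factor induced by STAT3, rose from 67.7 ± 19.6 to 182 ± 10.4 CPM in LE (1.44 ± 0.24, adjusted p = 0.00682). PIAS1, an inhibitor of STAT signalling, rose from 92.6 ± 10.9 to 173 ± 22.6 CPM (0.92 ± 0.15, adjusted p = 0.00662). The kinase JAK1 stood at 169 ± 35.0 and 319 ± 60.1 CPM (SD, n = 4 each) and was called by robust GLM and DESeq2 but not by the quasi-likelihood test (0.93 ± 0.20, adjusted p = 0.0185). SOCS6 was at 205 ± 38.3 and 123 ± 8.04 CPM (-0.73 ± 0.17, adjusted p = 0.0271) and was called by DESeq2 only (adjusted p = 0.000938).

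By list, the 4 calls in LE were 1 of 14 inhibitors, 2 of 8 adaptors and 1 of 19 targets of STAT3 or STAT5, with 0 of 4 JAK kinases, 0 of 3 other STATs, 0 of 3 other receptor chains and 0 of 2 shedding enzymes. At an unadjusted p under 0.05, 14 of the 53 were higher and 4 lower (26.9% of all genes in either direction). The ADAM10 and ADAM17 sheddases, which release soluble IL6R, had log2 fold changes of 0.26 ± 0.16 and -0.11 ± 0.23 in LE (adjusted p = 0.336 and 0.801). None of the other cytokines of the family passed the filter in LE or S, and CLCF1 did in GE, at 1.14 ± 0.88 CPM in cyclic and 5.79 ± 2.56 CPM in pregnant gilts (2.30 ± 0.66, adjusted p = 0.1).

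No pathway gene was called by the quasi-likelihood test in GE, BV or S (0.748, 1.86 and 0.293% of all genes). An unadjusted p under 0.05 was seen for 23 of 54 genes tested in GE (23.0% of all genes), for 18 of 57 in BV (28.5%) and for 11 of 59 in S (14.5%). Robust GLM called 7 in GE (6.66% of all genes), 8 in BV (11.0%) and 3 in S (3.16%), and DESeq2 called 7 (6.66%), 5 (8.52%) and 1 (2.60%). In GE the growth hormone receptor GHR was at 7.46 ± 3.83 and 20.6 ± 4.74 CPM (1.45 ± 0.40, adjusted p = 0.0942) and IGF1 at 243 ± 71.3 and 100 ± 23.7 CPM (-1.29 ± 0.28, adjusted p = 0.0583). Robust GLM and DESeq2 called both genes there. In BV, STAT6 was at 50.3 ± 5.76 and 80.4 ± 11.7 CPM (0.69 ± 0.15, adjusted p = 0.0277) and SOCS4 at 91.8 ± 9.45 and 51.9 ± 8.72 CPM (-0.81 ± 0.15, adjusted p = 0.0181), both called by robust GLM and DESeq2.

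IRF1, a transcription factor induced by cytokines, was at 33.0 ± 5.09 and 135 ± 122 CPM in S (2.04 ± 0.63, adjusted p = 0.207), with a wide spread among the pregnant gilts. Robust GLM (adjusted p = 0.00378) and DESeq2 (0.0224) called it there. In GE it was at 8.26 ± 1.61 and 73.1 ± 89.2 CPM (3.13 ± 0.78, adjusted p = 0.0781), again called by robust GLM and DESeq2. The changes in BV (1.32 ± 0.50, adjusted p = 0.119) and LE (1.29 ± 0.52, adjusted p = 0.147) were called by no test.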

How the data were processed

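RNA-seq counts of 4 endometrial compartments from 4 pregnant and 4 cyclic gilts were analysed. The authors deposited whole counts of reads per NCBI gene, without normalization, made with Trim Galore, Hisat2 on Sscrofa11.1, NuGEN's nudup for removal of PCR duplicates and QuasR, whose versions and strand setting are not given in the sources used here. Each compartment has a full table and one filtered by the authors on CPM, whose cut-off is not given. Gene names, positions and sequences come from the NCBI annotation and genome of Sscrofa11.1, to which all 30185 gene IDs matched.

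Pregnant and cyclic libraries were compared in each filtered table with edgeR 4.0.16 in R 4.3.3 (TMM, glmQLFit, glmQLFTest), and the Benjamini-Hochberg adjustment ran over every gene of the table. The call rule followed the study, which set 1% in LE and used its largest p elsewhere. Compartments and interactions were fitted jointly with the gilt as a block, since compartments of 1 gilt share the animal. Cyclic and pregnant gilts are different animals with no shared numbers, so their comparison has no pairing. No pair of libraries of a group agreed within sampling noise. Robust GLM, DESeq2 1.42.0, RLE normalization, other filters, summed loci, tables without the 2 rRNA genes (5.2 to 16.9% of counts) and leave-one-out fits were alternatives. The quasi-likelihood script was tested on simulated data. Transcripts were aligned with blastn 2.17.0.

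The genes, the pathway and marker lists and the tests were chosen with earlier results of these data known. All genes of the group were named in every compartment, and of each pathway list those called and the 2 with the smallest p, from which the text takes its examples. IRF1 is given for the other compartments too. The result of 1 gene of the pathway lists is not reported here.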

Additional observations from a re-analysis of the deposited data

Results flagged for a closer look

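Of 77 groups of 4 libraries, 4 held a library that stood apart from the rest by Dixon's test, which chance alone gives in about 1 in 20 groups. LIF in cyclic LE was 45.7 CPM in gilt C78, where the next library had 5.02 CPM. LIF in pregnant BV was 7.2 CPM in gilt P39, next to 1.53 CPM. IL6ST in pregnant BV was 631 CPM in gilt P41, below 810 CPM in the nearest library. SOCS3 in cyclic S was 27 CPM in gilt C78, next to 8.02 CPM. The effect of pregnancy on IL11RA differed between the compartments in a test of the difference itself, with an adjusted p of 0.00689 over all 4 compartments and of 0.00264 for LE against BV, where the log2 fold changes of -0.93 in LE and 1.02 in BV had opposite signs. Epithelial markers were higher in pregnant BV, as given above, and their part in this difference was not tested.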

How the results depend on the processing

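With single gilts left out, the number of these genes called ranged from 0 to 2 in LE and from 0 to 1 in BV, the number whose pregnancy effect differed between compartments from 0 to 1, and the number differing between compartments in pregnant gilts from 6 to 10. Pathway genes called ranged from 0 to 4 in LE and from 0 to 1 in S in the same fits. Robust GLM raised the members called from 2 to 5 in LE and from 0 to 1 in GE, and the pathway genes called to 10 for LE, 7 for GE, 8 for BV and 3 for S, while DESeq2 gave 8, 7, 5 and 1. A false discovery rate of 5% gave 8 pathway genes in LE and 4 in BV, one of 1% within BV ended the IL11RA call there (0 members), and no filter gave 2 pathway genes in LE. Members whose pregnancy effect differed between compartments were 2 at 5% and 3 by DESeq2. Without the replicate block for the gilt they were 1 as before, and the members differing between compartments were 9 in cyclic and 7 in pregnant gilts, where the fit with the block gave 10. The direction of single log2 fold changes turned for LIF in LE (0.09 by robust GLM), STAT5B in BV (0.03 by robust GLM and 0.09 summed with STAT5A) and STAT3 in S (-0.00073 by robust GLM). With a gilt left out, the log2 fold change turned in some fits for LIF in LE (-2.32 to 1.08), OSMR in BV (-0.30 to 0.18), STAT5B in BV (-0.13 to 0.16), STAT3 in S (-0.15 to 0.19) and SOCS3 in S (-0.81 to 0.26), none of which was called. The cause of these shifts was not tested. LIF in BV and S and SOCS3 in LE and GE had low counts, from 0 to 31 per library for LIF and 3 to 26 for SOCS3, which limits any statement on them.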

Other observations

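Over all 31 libraries, the log2 CPM of the LIFR loci ran most closely with each other (Pearson r = 0.99), which share sequence, and LOC397451 also with the transcription cofactor gene LDB2 (0.98) and ZBTB16 (0.97). OSMR was closest to the TGF-beta receptor TGFBR2 (0.95), LDB2 and ZBTB16 (0.94 each). IL11RA was closest to GALT (0.96), its neighbour on chromosome 10, and to STX18 and FAM221A (0.94 each). IL6R was closest to ARHGAP21 (0.90), PPP2R5A (0.85) and FOXO4 (0.84), and IL6ST to HHAT (0.85), RBL2 and ZNF503 (0.83 each). STAT5A was closest to MAP3K3 (0.91), MEF2D (0.89) and TSPAN5 (0.87), STAT5B to STAT5A (0.86), and STAT3 to UBE2B (0.82). The libraries share gilts, compartments and normalization, so that these values describe levels that follow the compartments and carry no test.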
